A study of Homo sapiens with 18 samples.

Results

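Clone 1 and clone 2 of OCI-AML3, both labelled as caspase-2 knockouts, were compared directly with each other. OCI-AML3 is an established human acute myeloid leukaemia cell line whose NPM1 carries the mutation (NPM1c+) that moves nucleophosmin into the cytoplasm. The comparison used 6 of the 18 samples of the series, the 3 RNA-seq libraries of clone 2 and the 3 of clone 1, chosen by their labels. The 3 libraries of the OCI-AML3 parental cells (NPM1c+, caspase-2 WT) serve as a reference level. The series was set up to ask what caspase-2 does in leukaemia cells with and without mutant NPM1, and its other 9 libraries come from OCI-AML2, a line with normal NPM1, as parental cells and 2 clones. All 9 OCI-AML3 libraries came from untreated cells that had been in culture for under 2 weeks. Each knockout group is 1 clone, made by CRISPR/Cas9 genome editing, so a difference between the clones has 1 clone on each side. The labels do not say whether the 3 libraries of a clone came from separate cultures, and p-values here measure only the spread between libraries.

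Caspase-2 is an initiator caspase, a protease that is activated in large protein complexes and takes part in cell death and in responses to DNA damage and faulty cell division. Clones grown from single edited cells share the edited gene and can differ elsewhere, in inherited chromatin states, in growth state and in signalling between cells. One pathway that can differ in level between cultures of the same line is the type I interferon response. Interferon binds its receptor on the cell surface, and the signal leads to a transcription factor complex that binds interferon-stimulated response elements in promoters and switches on a large group of antiviral genes.

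The values are TPM, a measure of transcript abundance scaled for gene length and library size. The deposited table is a stack of gene lists selected for change, with 6999 lines, 4816 symbols and 5069 distinct sets of 18 values, 1319 of which stand under 2 symbols. Of the sets, 96.5% reached an absolute log2 ratio of 0.95 in at least 1 of 3 comparisons: one parental line with the other, OCI-AML3 parental cells with both their clones, or OCI-AML2 parental cells with their clone 1. Shares called changed therefore refer to this selected table. Each set was counted once, and 2320 sets had a settled symbol. The 5069 sets sum to between 177334.5 and 183700.6 TPM in the 6 clone libraries, and TPM keeps no read depth, so no counting error can be given.

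CASP2, the targeted gene, was measured at 26.34, 27.05 and 27.83 TPM in clone 1 and 31.09, 35.39 and 29.82 TPM in clone 2. In parental cells it was at 30.11, 28.12 and 28.0 TPM. The clones did not overlap, but the difference did not pass the test (clone 2 minus clone 1, log2 difference 0.23, SE 0.11, adjusted p = 0.214 by limma). An exact two-sided permutation test over the 6 libraries gave p = 0.1, the smallest it can give. Against parental cells the log2 values were -0.08 for clone 1 (adjusted p = 0.537) and 0.15 for clone 2 (adjusted p = 0.24), so the amount of CASP2 mRNA did not separate either clone from the parental cells. An edit that shifts the reading frame need not change the amount of mRNA, and the labels rest on no check in these data.

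In this table, selected for differences from parental cells, the clones were much closer to each other than to the parental cells. Over 1389 sets whose replicate order is known, the root mean square log2 difference between 2 libraries of the same clone was 0.2202 to 0.2206 in clone 1 and 0.2134 to 0.2371 in clone 2. Between a library of clone 1 and a library of clone 2 it was 0.2479 to 0.322, and between either clone and the parental cells it was 1.48 to 1.52. Replicate 2 of clone 2 lay farthest from clone 1, at 0.3034 to 0.322, and replicate 3 nearest, at 0.2479 to 0.2607.

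Of 4413 tested sets (at least 1 TPM in at least 3 libraries), 301 (6.82%) passed an adjusted p of 0.05 in limma on log2(TPM + 1). In clone 2, 174 sets (3.94%) were higher and 127 (2.88%) were lower, and 1044 sets had an unadjusted p under 0.05. Most differences were small: the median absolute log2 difference over all tested sets was 0.11, and 7 of the 301 reached a log2 difference of 1, with 6 lower and 1 higher. A log2 difference of 0.5 was reached by 54 lower and 34 higher sets. Among the 2084 tested sets with a settled symbol, 89 (4.27%) were higher and 64 (3.07%) lower. In 261 of the 2084 (12.5%), all 3 clone 2 libraries lay below all 3 clone 1 libraries. The lower sets held more of the larger differences. Among lower sets with a settled symbol, interferon-stimulated genes took 9 of the 10 largest falls. The lower sets without a settled symbol cannot be named.

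**Figure D1:**
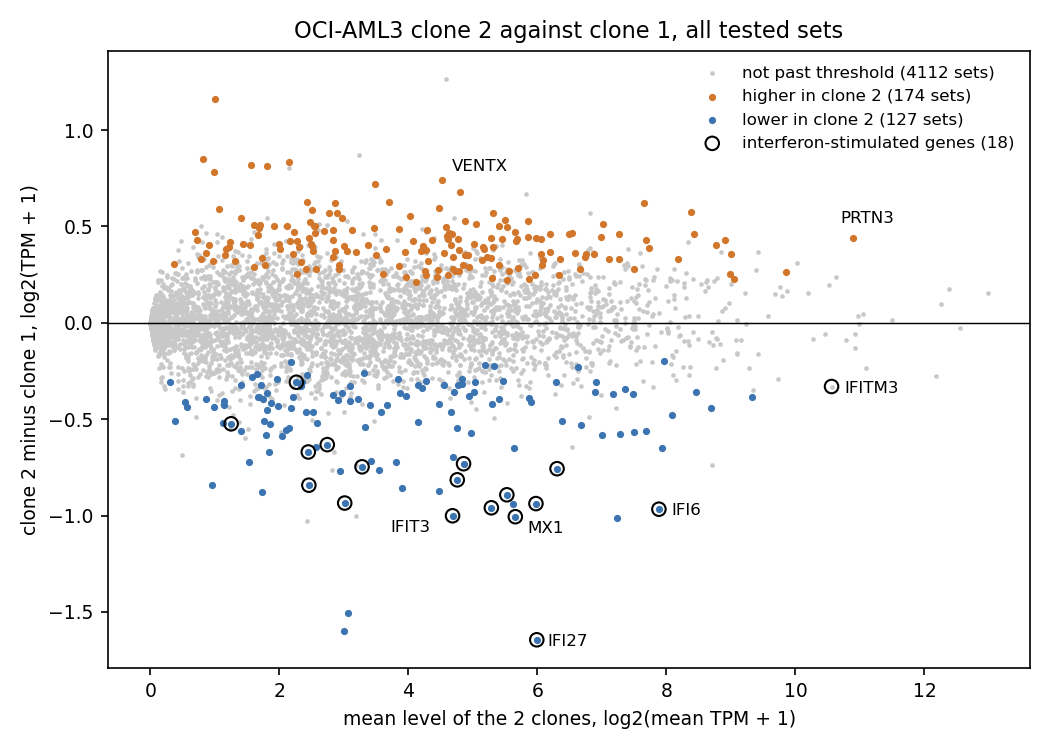
Each point is 1 of the 4413 tested sets, with the mean level of the clones on the x axis, log2(mean TPM + 1), and the difference clone 2 minus clone 1 on the y axis, log2(TPM + 1). Orange points are the 174 sets higher in clone 2, blue points the 127 lower, and black rings mark the 18 tested interferon-stimulated genes, all of which lie below 0.

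Interferon-stimulated genes were lower in clone 2 as a group. Of 18 tested members of the list, 17 were lower, 0 were higher, and IFITM3 did not pass, beside 3.07% lower over all tested sets with a settled symbol. The median log2 difference of the 18 was -0.83, beside 0.01 for all tested sets with a settled symbol. In the 17 lower genes, clone 2 had 0.313 to 0.763 of the mean TPM of clone 1, with a median ratio of 0.531. The list members take 9 of the 10 largest falls among settled sets and 15 of the 20 largest. The list holds 47 genes: 41 symbols stand in the table, 19 of these had a settled set of values, and GBP1 was below the filter with 0.08 TPM or less in every clone library. The other 22 printed symbols could not be tied to a set and have no result here.

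IFI27, a small mitochondrial protein strongly induced by type I interferon, had the largest fall. It was measured at 98.13, 100.42 and 87.44 TPM in clone 1 and 28.39, 33.26 and 27.89 TPM in clone 2, where the parental libraries had 1410.72, 1595.75 and 1567.22 TPM. Every clone 2 library was far below every clone 1 library, and both clones were far below the parental cells. The mean was 3.19 times higher in clone 1 (95.3 ± 6.93 against 29.8 ± 2.97 TPM, SD, n = 3), with a log2 difference of -1.64 (SE 0.17, adjusted p = 1.2e-05).

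MX1, a dynamin-like GTPase that blocks virus replication, was at 68.19, 65.96 and 65.1 TPM in clone 1 and 32.27, 32.58 and 32.84 TPM in clone 2. The replicates of each clone were nearly equal, and clone 2 had 0.490 of the clone 1 mean (log2 difference -1.01, SE 0.09, adjusted p = 1.1e-05). In parental cells MX1 was at 110.47, 105.44 and 116.02 TPM, above both clones.

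The IFIT genes encode a family of antiviral proteins, of which IFIT1 binds viral RNA lacking the host's cap modification. IFIT3 was at 33.4, 32.69 and 33.72 TPM in clone 1 and 16.42, 14.53 and 17.55 TPM in clone 2 (log2 difference -1.0, SE 0.12, adjusted p = 4.1e-05). Its parental libraries had 11.08, 10.83 and 14.32 TPM, so clone 1 was the highest of the 3 groups and clone 2 lay between. IFIT1 and IFIT2 had the same order at lower levels. IFIT1 went from 9.59 ± 0.595 TPM in clone 1 to 4.56 ± 0.62 in clone 2 (adjusted p = 1.1e-05), above 1.73 in parental cells. IFIT2 went from 5.70 ± 0.357 to 3.22 ± 0.317 TPM (adjusted p = 0.00137), above 0.983 in parental cells.

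The OAS genes encode enzymes that sense double-stranded RNA and make the 2′-5′-linked oligoadenylates that activate RNase L. OAS2 was at 101.44, 96.38 and 97.19 TPM in clone 1 and 56.87, 57.3 and 59.16 TPM in clone 2 (log2 difference -0.76, SE 0.08, adjusted p = 1.1e-05). OAS3 was at 34.29, 34.8 and 36.31 TPM in clone 1 and 21.41, 20.46 and 20.43 TPM in clone 2 (log2 difference -0.73, SE 0.08, adjusted p = 1.2e-05). OASL, a relative without the synthetic activity, was at 6.06 ± 1.06 TPM in clone 1 and 2.93 ± 0.455 in clone 2 (adjusted p = 0.00063). The clones did not overlap in any of these 3 genes. All 3 passed the test, which makes such separation likely, beside 12.5% of all tested sets with a settled symbol.

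Among genes of the cell surface and membranes, the abundant IFI6, which protects endoplasmic reticulum membranes from flavivirus replication, was at 289.42, 320.95 and 321.15 TPM in clone 1. In clone 2 it was at 146.13, 193.18 and 140.15 TPM (log2 difference -0.97, SE 0.10, adjusted p = 1.2e-05). Replicate 2 of clone 2 was the highest of its group and still well below clone 1. IFITM1, which hinders the entry of viruses through cell membranes, was at 62.76, 56.11 and 57.86 TPM in clone 1 and 30.89, 29.66 and 33.28 TPM in clone 2 (adjusted p = 0.00216). Its relative IFITM3 was the most abundant member, at 1697.36, 1663.97 and 1675.22 TPM in clone 1 and 1335.58, 1416.36 and 1257.71 TPM in clone 2. The clones did not overlap there either, but the log2 difference of -0.33 did not pass (adjusted p = 0.18). The IFITM genes are related copies, and how reads were shared between them is not given in the sources used here. SIGLEC1, a sialic acid receptor of macrophages, was at 11.2 ± 0.932 TPM in clone 1 and 6.26 ± 0.562 in clone 2 (adjusted p = 2.1e-05).

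IFI44 and IFI44L, related cytoplasmic proteins encoded side by side, had nearly equal falls. IFI44 was at 54.05, 50.12 and 47.43 TPM in clone 1 and 22.88, 27.1 and 26.61 TPM in clone 2 (log2 difference -0.96, adjusted p = 1.1e-05). IFI44L was at 87.6, 84.46 and 73.45 TPM in clone 1 and 43.09, 39.08 and 44.37 TPM in clone 2 (log2 difference -0.94, adjusted p = 1.1e-05). CMPK2, a mitochondrial nucleotide kinase, and RSAD2, which encodes the antiviral enzyme viperin, are neighbours on the chromosome. CMPK2 was at 33.61, 33.89 and 32.93 TPM in clone 1 and 17.83, 17.6 and 20.5 TPM in clone 2 (log2 difference -0.81, adjusted p = 0.00013). RSAD2 was low, at 1.94, 1.42 and 2.03 TPM in clone 1 and 0.91, 0.55 and 1.45 TPM in clone 2 (adjusted p = 0.0304). It was the only one of the 17 in which the clones overlapped. The 17 were picked by the call, which makes such separation likely. Over all tested sets with a settled symbol, clone 2 lay wholly below clone 1 in 12.5%. SAMD9, an antiviral restriction factor, was at 7.14 ± 0.274 TPM in clone 1 and 4.25 ± 0.28 in clone 2 (adjusted p = 0.00013). GBP4, a guanylate-binding protein, showed the smallest called difference, 4.32 ± 0.391 against 3.29 ± 0.297 TPM (log2 difference -0.31, adjusted p = 0.0418).

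**Figure D2:**
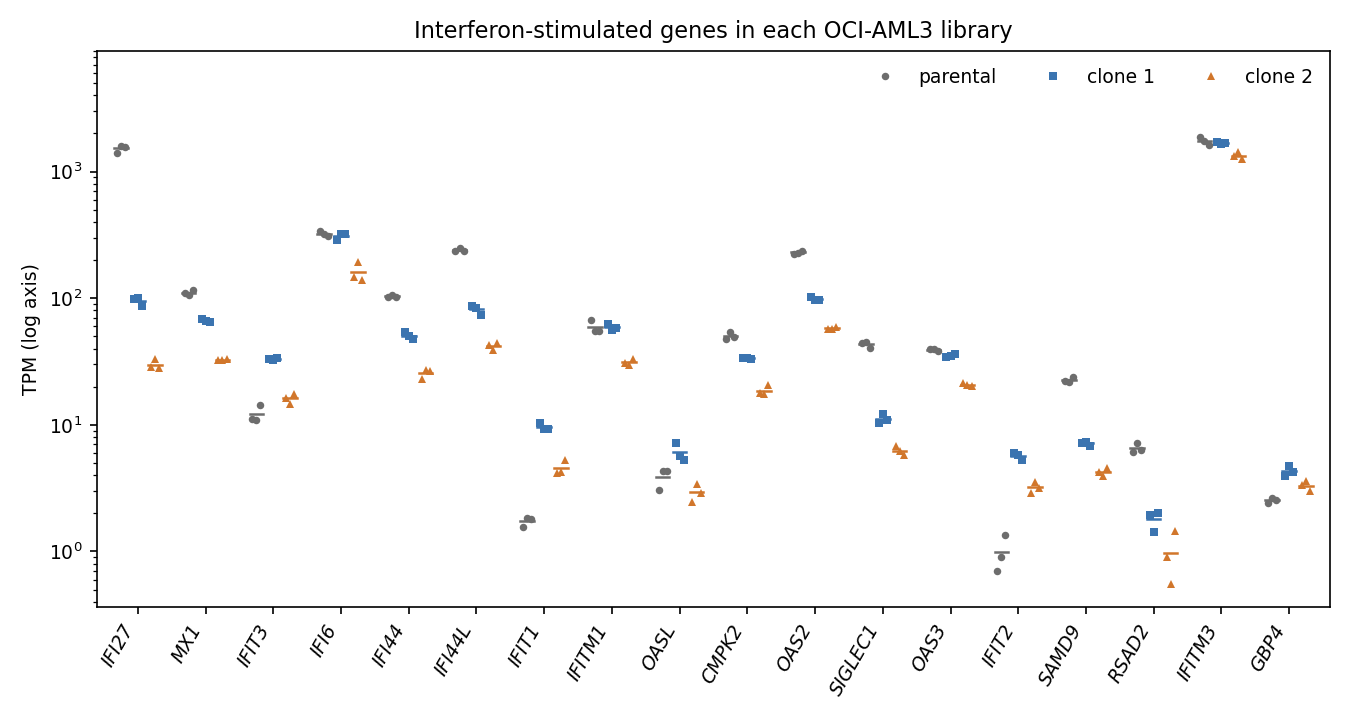
TPM on a log axis for the 18 tested interferon-stimulated genes, ordered by the size of the difference; points are single OCI-AML3 libraries and bars are means of the 3 libraries of a group. The mean of clone 2 (triangles) lies below that of clone 1 (squares) in all 18 genes, with overlapping libraries in RSAD2, while the parental libraries (circles) lie above both clones in some genes and below both in others.

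Set against the parental cells, the 17 genes were not placed uniformly. Both comparisons share the parental libraries, and the table was selected on such ratios: over all tested sets 41.0% were lower and 31.3% higher than parental in clone 1, and 41.5% lower and 31.6% higher in clone 2. In clone 1, 9 of the 17 were below parental, 5 were above and 3 did not pass. In clone 2, 13 were below, 4 were above and 0 did not pass. IFI6, IFITM1 and OAS3 were the 3 that did not pass in clone 1: IFI6 stood at 310.5 TPM in clone 1 beside 323.7 in parental cells, IFITM1 at 58.9 beside 59.2, and OAS3 at 35.1 beside 39.3. All 3 were below parental in clone 2, with log2 values of -1.03, -0.89 and -0.89. OASL was above parental in clone 1 (log2 0.53, adjusted p = 0.00115) and below it in clone 2 (log2 -0.31, adjusted p = 0.0368). IFIT1, IFIT2, IFIT3 and GBP4 were above parental in both clones. Summed over the 17 genes, the libraries held 2667.0 to 2848.9 TPM in parental cells, 896.4 to 922.3 TPM in clone 1 and 441.1 to 490.2 TPM in clone 2. Without IFI27, which made up much of the parental sum, these ranges were 1239.4 to 1256.3, 809.0 to 821.9 and 412.7 to 457.0 TPM.

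In OCI-AML2 the highest group mean of any of the 17 genes was 63.4 TPM, for IFI6 in clone 1. Apart from SAMD9, every OCI-AML2 group mean of these genes lay below all 3 OCI-AML3 group means. SAMD9 was at 7.96 and 10.75 TPM in clones 1 and 2 of OCI-AML2, above the 7.14 and 4.25 TPM of the OCI-AML3 clones. Over the 17 genes in OCI-AML2, the ratio of clone 2 to clone 1 ran from 0.217 to 2.55 with a median of 1.12. Clone 2 was below clone 1 in 8 genes and above it in 9. Many of these ratios come from means near the floor, such as 0.263 and 0.363 TPM for IFIT1 in clones 1 and 2. The genes with the highest clone 1 means had ratios of 0.406 (IFI6), 0.6 (OAS2), 1.35 (SAMD9), 0.631 (IFITM1), 0.893 (IFI44) and 0.615 (MX1). These are group means given as a description, and the difference between the lines was not tested.

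Promoters of 14 of the 18 tested genes are in the RefSeq promoter table (GRCh38.p14), as windows from 250 bases before to 50 after the transcript start. They were searched on both strands for the core of the interferon-stimulated response element, GAAA followed by any 2 bases and GAAA, which reads TTTC, any 2 bases and TTTC on the other strand. The motif was in 11 of the 13 windows of genes lower in clone 2 (84.6%) and in that of IFITM3. It was in 996 of all 27305 windows in the table (3.65%), in 50 of 1458 windows of the other tested sets with a settled symbol (3.43%), and in 4 of 32 windows (12.5%) where those other sets were lower in clone 2. CMPK2 and RSAD2 are the lower genes without a match, which says only that these letters are not in this window. The genes were listed for their induction by interferon, so the motif is a property of the list and not an independent result. The bases before the start of 4 genes with large falls are shown 5′ to 3′ in the direction of the gene, with matches on either strand in capitals, to show how many copies lie close to the start. IFI27 (GRCh38.p14, chr14:94110486-94110735 on the forward strand) has 1 match on each strand, close together, the outer one starting 108 bases before the transcript start. IFIT3 (chr10:89327747-89327996 on the forward strand) has 2 matches on the other strand, from 156 and 122 bases before it. IFI6 (chr1:27672193-27672442 on the reverse strand) has 3 matches, the first from 156 bases before it. IFI44 (chr1:78649539-78649788 on the forward strand) has 1, from 18 bases before it.
IFI27: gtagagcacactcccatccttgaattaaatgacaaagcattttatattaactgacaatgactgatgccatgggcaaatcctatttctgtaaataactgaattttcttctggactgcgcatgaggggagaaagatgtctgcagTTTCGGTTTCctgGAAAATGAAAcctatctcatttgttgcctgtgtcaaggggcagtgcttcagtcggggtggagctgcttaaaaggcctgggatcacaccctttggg
IFIT3: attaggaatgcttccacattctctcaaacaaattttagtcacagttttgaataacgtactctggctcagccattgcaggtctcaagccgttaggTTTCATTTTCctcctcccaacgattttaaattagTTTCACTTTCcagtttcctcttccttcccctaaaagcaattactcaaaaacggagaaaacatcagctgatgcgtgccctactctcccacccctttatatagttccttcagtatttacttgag
IFI6: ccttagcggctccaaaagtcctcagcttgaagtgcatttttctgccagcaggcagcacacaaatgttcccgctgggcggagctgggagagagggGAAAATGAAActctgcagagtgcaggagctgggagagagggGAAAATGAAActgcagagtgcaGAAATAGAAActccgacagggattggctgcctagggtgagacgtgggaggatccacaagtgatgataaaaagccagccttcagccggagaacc
IFI44: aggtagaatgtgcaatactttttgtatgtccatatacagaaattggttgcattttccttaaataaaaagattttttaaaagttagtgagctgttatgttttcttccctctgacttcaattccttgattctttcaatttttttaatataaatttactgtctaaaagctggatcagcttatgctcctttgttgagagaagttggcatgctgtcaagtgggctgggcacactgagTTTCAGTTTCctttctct

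Few genes on the lists of antigen presentation, cytokines and cytokine receptors passed. TAP1, a subunit of the peptide transporter that loads MHC class I molecules, was at 108.07, 100.4 and 108.34 TPM in clone 1 and 86.07, 96.37 and 87.27 TPM in clone 2 (log2 difference -0.23, SE 0.07, adjusted p = 0.0443). It was the only one of 6 tested MHC presentation genes to pass, and the median of the 6 was -0.03, beside 3.07% lower and 4.27% higher over all tested sets with a settled symbol. TNFSF13B, which encodes the B-cell survival cytokine BAFF, was at 21.05, 20.14 and 17.98 TPM in clone 1 and 14.86, 10.86 and 15.14 TPM in clone 2 (log2 difference -0.51, SE 0.12, adjusted p = 0.0203). TGFA, a ligand of the EGF receptor, was at 7.05 ± 0.277 and 5.23 ± 0.47 TPM (adjusted p = 0.0198). TNF, the inflammatory cytokine, was higher in clone 2, at 194.04, 206.95 and 188.37 TPM beside 160.02, 156.46 and 167.63 in clone 1 (log2 difference 0.28, SE 0.06, adjusted p = 0.0165). These were the 3 called among 13 cytokines and growth factors, 2 lower and 1 higher, with a median of 0.05. Of the others, the chemokine CCL5 was at 814.2 and 926.2 TPM and IL1B at 47.1 and 58.3 TPM, without passing. None of 12 cytokine and growth factor receptors passed.

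Of 19 tested extracellular matrix and cytoskeleton genes, 3 were lower and 1 higher, and the median of the 19 was -0.02, beside 3.07% lower and 4.27% higher over all tested sets with a settled symbol. IGFBP3, which binds insulin-like growth factors, was at 314.78, 308.79 and 317.87 TPM in clone 1 and 235.17, 218.05 and 222.1 TPM in clone 2. The groups were far apart for their spread (log2 difference -0.48, SE 0.07, adjusted p = 0.00052), although both clones lay far above parental cells, at 2.46, 3.2 and 2.89 TPM. COL1A2, a chain of type I collagen, was at 2.85, 3.91 and 3.05 TPM in clone 1 and 2.17, 1.85 and 1.83 TPM in clone 2 (log2 difference -0.53, SE 0.08, adjusted p = 0.00089). ADAMTS1, a secreted metalloprotease, was at 25.2 ± 0.32 and 19.9 ± 1.22 TPM (adjusted p = 0.0172). COL6A1, a chain of type VI collagen, went the other way, from 90.1 ± 3.68 to 109.4 ± 4.93 TPM (adjusted p = 0.0443). MMP2, a gelatinase, was at 373.7 and 425.5 TPM without passing.

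Several further falls had no list in common. CALB2, which encodes the calcium-binding protein calretinin, was at 13.74, 10.91 and 12.51 TPM in clone 1 and 7.41, 6.86 and 7.04 TPM in clone 2 (log2 difference -0.72, SE 0.09, adjusted p = 6.1e-05), and all 6 values exceeded the parental ones of 4.23, 3.47 and 3.4 TPM. MRPS33, a protein of the small mitochondrial ribosome subunit, was at 92.4, 94.52 and 105.21 TPM in clone 1 and 65.64, 68.29 and 70.4 TPM in clone 2 (log2 difference -0.51, adjusted p = 0.02). TATDN1, a member of a nuclease family, was at 133.02, 118.41 and 108.42 TPM in clone 1 and 94.18, 65.94 and 90.45 TPM in clone 2 (log2 difference -0.53, adjusted p = 0.0382), with replicate 2 of clone 2 well below the other two. CES1, a carboxylesterase of monocytes and liver, was abundant and differed little, at 264.1 ± 10.5 and 230.1 ± 10.02 TPM (adjusted p = 0.046).

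Among integrated stress and unfolded protein response genes, 2 of 9 were lower and 0 higher, beside 3.07% lower and 4.27% higher over all tested sets with a settled symbol. SLC7A11, the cystine transporter, was at 28.81, 30.58 and 28.59 TPM in clone 1 and 23.16, 22.39 and 24.24 TPM in clone 2 (log2 difference -0.32, adjusted p = 0.0445). DDIT3, which encodes the transcription factor CHOP, was at 128.74, 136.45 and 130.12 TPM in clone 1 and 110.41, 97.94 and 110.98 TPM in clone 2 (log2 difference -0.31, adjusted p = 0.0221). The chaperone gene HSPA5 was at 286.8 and 247.5 TPM, and CHAC1, a glutathione-degrading enzyme, at 286.4 and 331.4 TPM. Neither passed, and the median of the 9 was -0.05.

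The genes higher in clone 2 differed by less. VENTX, a homeobox transcription factor of myeloid differentiation, had the largest difference among those with at least 10 TPM in the higher clone: 17.3, 12.95 and 18.38 TPM in clone 1 and 27.33, 30.41 and 25.09 TPM in clone 2 (log2 difference 0.74, SE 0.15, adjusted p = 0.00743). In parental cells it was at 7.57, 7.5 and 5.22 TPM, below both clones. Of the granule proteases, PRTN3 (proteinase 3) was at 1550.54, 1611.36 and 1669.9 TPM in clone 1 and 2153.76, 2415.97 and 2008.22 TPM in clone 2 (log2 difference 0.44, SE 0.12, adjusted p = 0.0385). CTSG (cathepsin G) was at 862.1, 824.2 and 833.25 TPM in clone 1 and 1053.84, 970.43 and 1006.38 TPM in clone 2 (log2 difference 0.27, SE 0.06, adjusted p = 0.0198). Both proteases stayed far below their parental levels of 6957.43 to 8465.47 and 5103.1 to 5230.9 TPM. They were the 2 of 10 tested primary granule genes that passed, beside 4.27% higher over all tested sets with a settled symbol. The median of the 10 was 0.04, and AZU1, azurocidin, was at 1371 and 1575 TPM without passing.

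HOXB9 and HOXB4, homeobox genes of the HOXB cluster expressed in haematopoietic progenitors, were the 2 of 11 HOX, MEIS and PBX genes called, both higher, beside 4.27% higher over all tested sets with a settled symbol. The median of the 11 was 0.001. HOXB9 was at 17.88, 22.03 and 21.52 TPM in clone 1 and 27.47, 30.7 and 27.34 TPM in clone 2 (log2 difference 0.46, SE 0.09, adjusted p = 0.00482). HOXB4 was at 18.72, 19.64 and 20.24 TPM in clone 1 and 25.97, 26.75 and 23.46 TPM in clone 2 (log2 difference 0.36, SE 0.09, adjusted p = 0.0204). HOXA9, the abundant A-cluster gene of this leukaemia type, was at 118.2 and 123.5 TPM without passing. DLX4, a homeobox gene of another family, was at 60.7 ± 2.86 and 83.95 ± 2.27 TPM (adjusted p = 0.0198).

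Among 8 immediate early and heat shock genes 2 were higher and 0 lower, with a median of 0.21, beside 4.27% higher, 3.07% lower and a median of 0.01 over all tested sets with a settled symbol. NR4A1, an orphan nuclear receptor, was at 17.59, 19.31 and 22.74 TPM in clone 1 and 26.36, 32.34 and 25 TPM in clone 2 (log2 difference 0.47, adjusted p = 0.046). FOSB, a subunit of AP-1, was at 1.4, 1.42 and 1.73 TPM in clone 1 and 2.84, 2.68 and 2.23 TPM in clone 2 (log2 difference 0.51, adjusted p = 0.0028), both far below the parental 17.05 to 20.55 TPM. FOS was at 34.6 and 37.4 TPM and did not pass. PLK1, a mitotic kinase, was at 36.93, 34.5 and 40.15 TPM in clone 1 and 50.13, 56.75 and 51.53 TPM in clone 2 (log2 difference 0.49, adjusted p = 0.0245), the 1 gene called of 8 for cell cycle and DNA replication. BTG2, an antiproliferative p53 target, was at 30.3 ± 3.34 and 39.7 ± 2.84 TPM (adjusted p = 0.0337), the 1 called of 11 p53 targets. CDKN1A, the p53-induced cyclin-dependent kinase inhibitor, was at 287.8 and 344.0 TPM without passing.

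Lipid mediator genes moved both ways. ALOX5AP, the protein that presents arachidonic acid to 5-lipoxygenase, was at 387.24, 399.29 and 443.82 TPM in clone 1 and 548.66, 606.88 and 503.33 TPM in clone 2 (log2 difference 0.43, SE 0.11, adjusted p = 0.0324). PTGS2, the inducible cyclooxygenase, was lower, at 7.9, 7.16 and 7.52 TPM in clone 1 and 5.37, 5.2 and 5.83 TPM in clone 2 (log2 difference -0.40, SE 0.11, adjusted p = 0.0367). The other 6 tested eicosanoid genes did not pass. LRP1, an endocytic lipoprotein receptor, was at 5.27 ± 0.141 and 6.97 ± 0.82 TPM (adjusted p = 0.0167), the 1 called of 9 lipid transport genes. Over all tested sets with a settled symbol, 4.27% were higher and 3.07% lower. ABCA2, a lipid transporter of lysosomes, was at 121.5 ± 2.81 and 153.7 ± 15.3 TPM (adjusted p = 0.0385).

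Of 13 neutrophil and phagocyte maturation genes, MMP9, gelatinase B, was higher (16.6 ± 1.33 and 22.7 ± 1.53 TPM, adjusted p = 0.0306). ORM1, an acute phase plasma protein, was lower, at 0.76, 2.91 and 0.97 TPM in clone 1 and 0.33, 0.34 and 0.32 TPM in clone 2 (adjusted p = 0.021), with 1 clone 1 library well above the other two. SELPLG, the selectin ligand PSGL-1, was at 5.92 ± 0.447 and 8.12 ± 0.597 TPM (adjusted p = 0.0247), the 1 called of 11 integrin, selectin ligand and homing receptor genes. In the monocyte and macrophage list, SIGLEC1 was the 1 called of 16, and it is also on the interferon list. Beside the counts of these 3 lists, 4.27% were higher and 3.07% lower over all tested sets with a settled symbol. CHI3L1, a secreted glycoprotein and the most abundant of the 16, was at 4745 and 5076 TPM, and the receptors CD14 and CD36 were at 42.1 and 50.2 TPM and at 40.4 and 34.5 TPM, none past the threshold.

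The other higher genes chosen by size had varied roles. MEF2D, a transcription factor, was at 182.3 ± 9.36 TPM in clone 1 and 239.4 ± 18.3 in clone 2. KIF21B, a kinesin motor, was at 77.3 ± 2.21 and 107.3 ± 8.56 TPM, and SAP25, a component of SIN3 corepressor complexes, at 127.9 ± 8.62 and 176.4 ± 12.4 TPM. RTN4RL2, a relative of the Nogo receptor, was at 35.8 ± 3.19 and 52.6 ± 7.86 TPM, and MROH6 at 22.95 ± 2.45 and 33.6 ± 4.85 TPM. LTBP4, which binds latent TGF-beta, was at 41.2 ± 1.92 and 57.6 ± 6.35 TPM, and GSTM2, a glutathione transferase, at 15.3 ± 0.627 and 21.9 ± 3.59 TPM. NREP was at 18.9 ± 1.97 and 27.1 ± 2.79 TPM, FCHO1, an endocytic adaptor, at 12.2 ± 0.826 and 18.4 ± 2.18 TPM, and KCND1, a potassium channel, at 11.1 ± 0.49 and 15.96 ± 1.22 TPM. ADAMTSL5, a secreted ADAMTS-like protein, was at 9.28 ± 1.33 and 14.8 ± 1.31 TPM. Their log2 differences ran from 0.39 for MEF2D to 0.63 for ADAMTSL5, and adjusted p-values from 0.00171 for KIF21B to 0.0471 for SAP25.

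**Figure D3:**
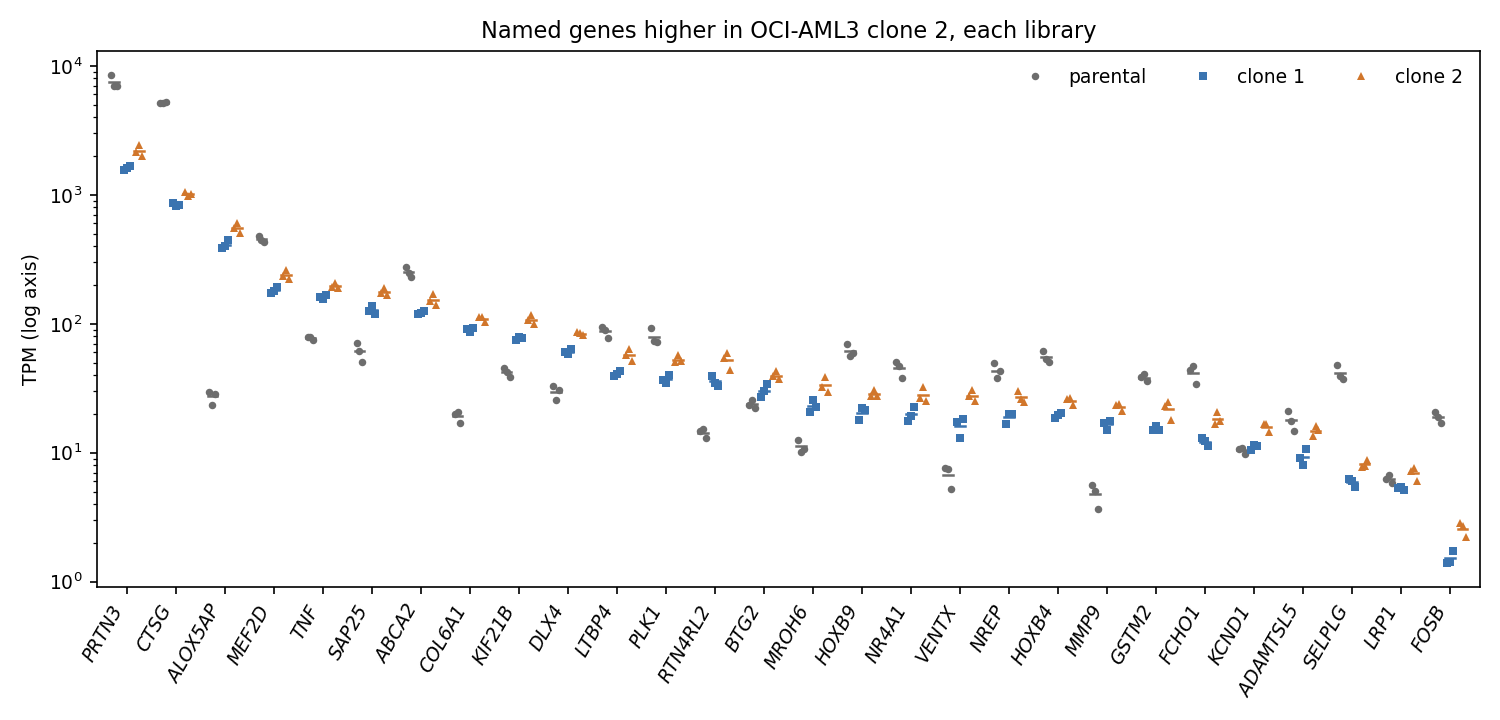
TPM on a log axis for the 28 named genes that were higher in clone 2, in every OCI-AML3 library, ordered by the clone 2 mean; points are libraries and bars are means of 3. The clones do not overlap in any of the 28, which was a condition of choice for 15 of them. All 28 were picked by the call, which makes such separation likely. Over all 2084 tested sets with a settled symbol, clone 2 lay wholly above clone 1 in 319. On the log2 scale the distance between the clones is smaller than that of the nearer clone from parental cells in most genes. In LRP1, BTG2, KCND1 and ADAMTSL5 it is larger. The table was selected for differences from parental cells, which favours large distances from them.

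The higher calls leaned on 1 library. Among the 174 higher sets, replicate 2 was the highest of the 3 clone 2 libraries in 126 (72.4%), beside 39.7% of all tested sets, and replicate 3 was the lowest in 124 (71.3%), beside 39.8%. In the same sets the parental libraries, which had no part in the contrast, also differed from each other: replicate 1 was the highest in 105 (60.3%, beside 30.3% of all tested sets) and replicate 3 the lowest in 111 (63.8%, beside 34.8%). Among the 127 lower sets, replicate 2 was the lowest clone 2 library in 52 (40.9%, beside 27.5%). Without replicate 2 of clone 2, 37 sets were higher and 65 lower. Of the 28 named higher genes 7 then passed, CTSG, FOSB, HOXB9, VENTX, KCND1, MROH6 and KIF21B. Of the 25 named lower genes 15 did, and CES1, DDIT3, ORM1, PTGS2, MRPS33, TGFA, ADAMTS1, TNFSF13B, SLC7A11 and TATDN1 did not. Without replicate 3 of clone 2 the numbers were 215 higher and 126 lower. Leaving out any 1 of the other 4 clone libraries gave 66 to 92 higher and 77 to 95 lower. For clone 1 these are columns as printed, since its replicate order is known for only 1389 of the 4413 tested sets. The part of library quality or growth state in this spread was not tested.

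The interferon result did not lean on that library. Without replicate 2 of clone 2, 15 of the 18 members were lower and 0 higher, with a median log2 difference of -0.82. Leaving out each of the 6 libraries in turn left 15 or 16 lower and 0 higher. Of the 17 lower genes, 12 passed in every alternative tried, and RSAD2 and GBP4 were lost most often, passing in 9 of 17 and 6 of 16.

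**Figure D4:**
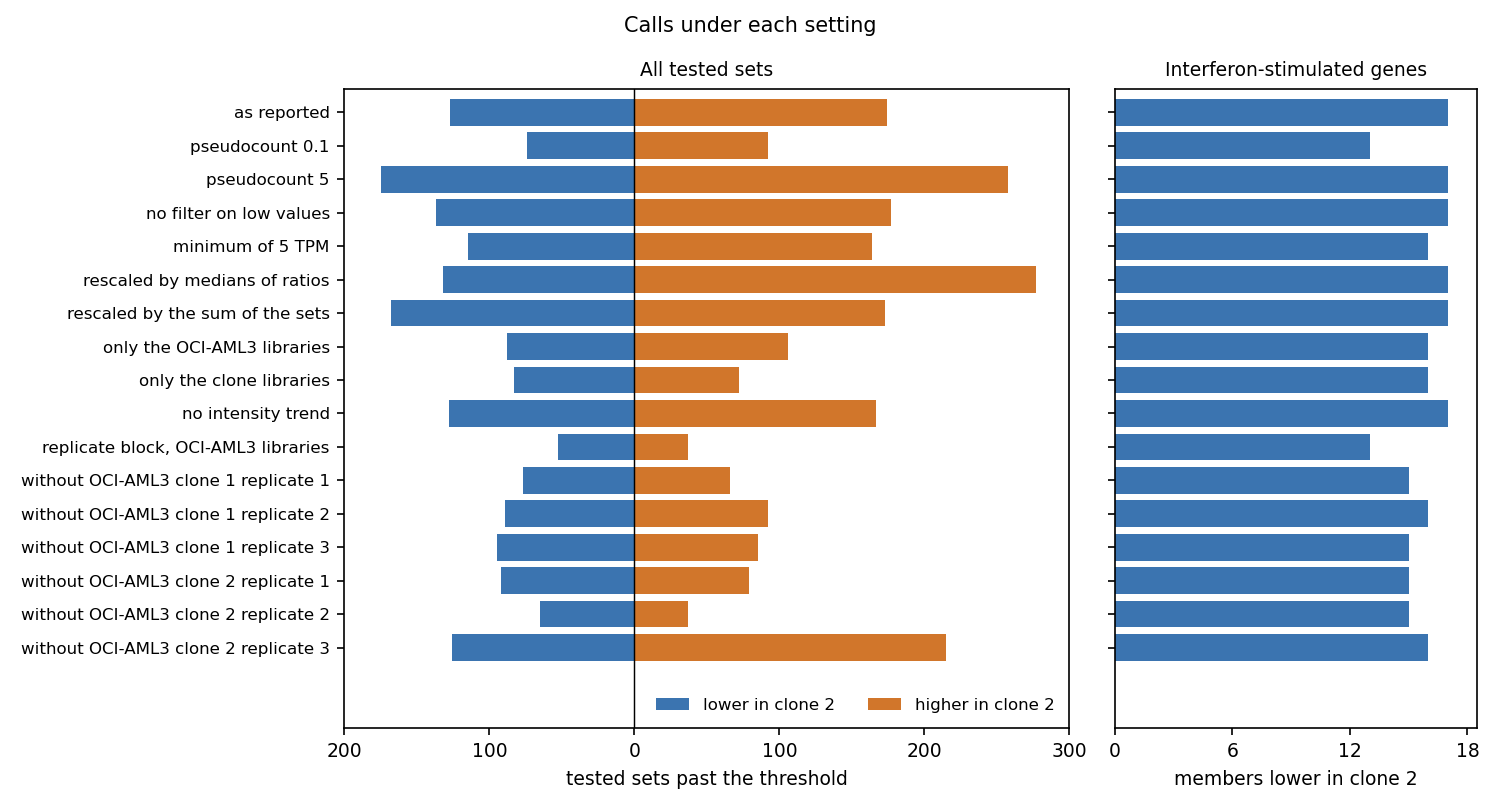
Left, the number of tested sets past the threshold under each setting, lower in clone 2 to the left of 0 and higher to the right; right, how many of the tested interferon-stimulated genes were lower. Between settings the higher calls range from 37 to 277 and the lower calls from 53 to 175. Of at most 18 tested interferon genes, 13 to 17 are lower.

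Most other lists showed few calls or none. The counts were 0 of 18 for Wnt, BMP and FGF signalling genes, 0 of 7 for stem and progenitor genes, for glycolysis and hypoxia genes, for amino acid and one-carbon enzymes and for histone genes, and 0 of 5 for sterol and fatty acid synthesis genes. Among 3 metallothionein genes 0 passed, with MT2A at 927.9 and 1148 TPM. Of 3 tested apoptosis regulators and caspases, CASP2 included, 0 passed. Medians of the lists with at least 7 tested members ran from -0.10 to 0.21, apart from -0.83 for the interferon-stimulated genes. Over all tested sets with a settled symbol, 4.27% were higher and 3.07% lower. At such shares, a count of 0 does not set a short list apart from the other sets. It also does not show that the genes of the list were equal between the clones.

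**Figure D5:**
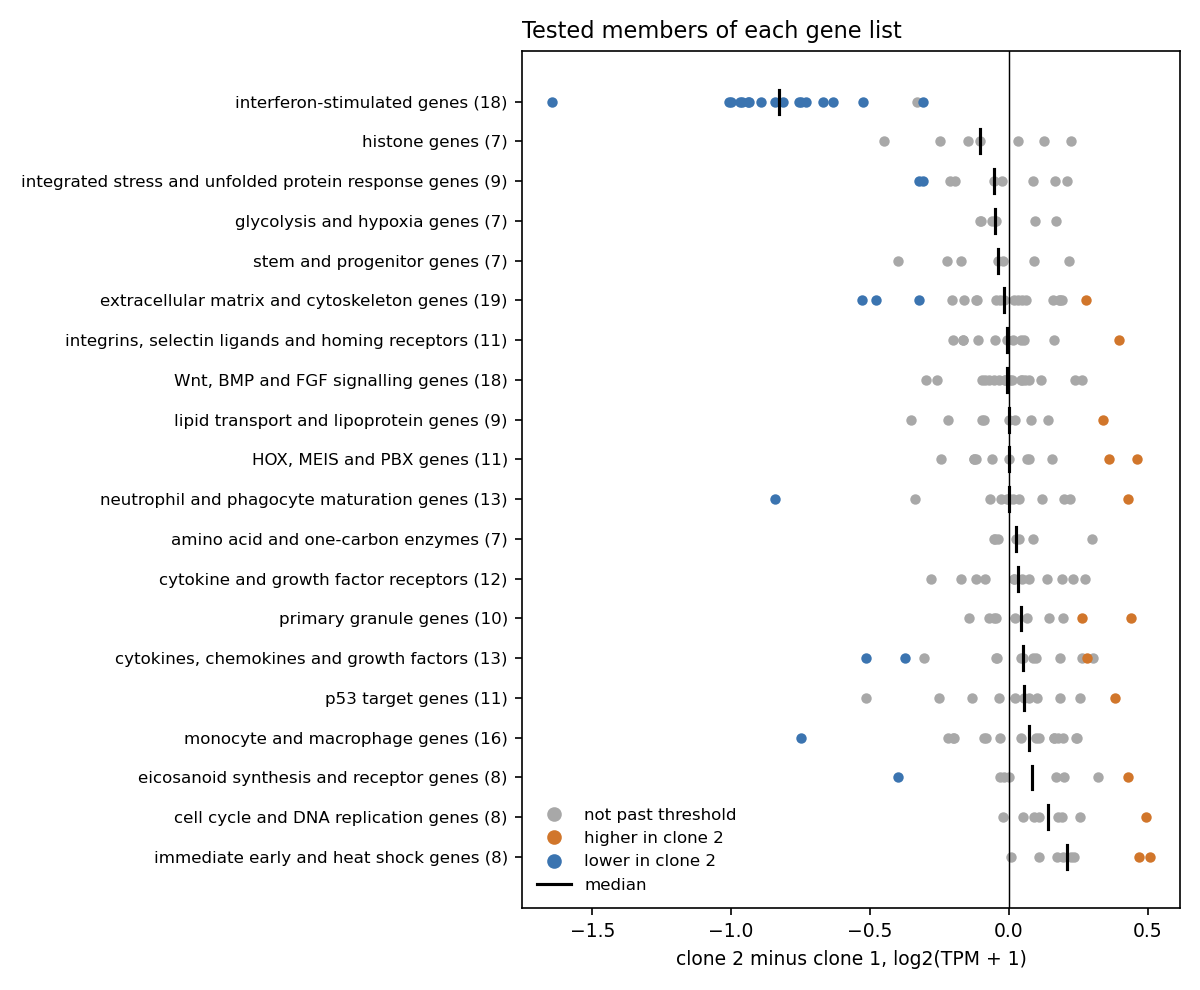
Log2 difference clone 2 minus clone 1 on log2(TPM + 1) for each tested member of the lists with at least 7 tested members, with the number tested in brackets; black bars are list medians. The interferon-stimulated genes lie to the left of 0 throughout, the other list medians run from -0.10 to 0.21, and all 8 immediate early and heat shock genes lie above 0.

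Markers of other cell types were at varied levels in the clones where their symbol was settled. The T cell marker CD3D was listed at 0 in all 6 libraries, the B cell markers PAX5 and MZB1 were at 0.18 TPM or less in both clone means, and the endothelial marker TIE1 at 0.1 TPM or less. Clone 1 and clone 2 means were 3.28 and 4.79 TPM for the natural killer cell marker NKG7, 0.08 and 0.03 TPM for KLRF1 of the same cells, 2.75 and 3.82 TPM for the mast cell tryptase TPSB2, and 5.25 and 6.28 TPM for the epithelial claudin CLDN7. The dendritic cell markers IL3RA and CLEC10A were at 10.14 and 8.79 TPM and at 5.25 and 5.48 TPM. The megakaryocyte markers NFE2 and GP1BB were at 11.75 and 12.1 TPM and at 134.4 and 141.9 TPM, and ITGA2B was at 0.437 and 0.32 TPM. No erythroid marker of the 14 listed stands in the table. COL1A2, described above, was the only marker past the threshold, beside 4.27% higher and 3.07% lower over all tested sets with a settled symbol. Of the myeloid markers, ANPEP (CD13) was at 58.7 and 67.03 TPM, CD37, a leukocyte tetraspanin, at 33.4 and 43.7 TPM and TYROBP, a signalling adaptor, at 29.8 and 32.1 TPM, none past the threshold.

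No run of neighbouring genes reached the size set for naming one. Of the 2084 tested sets with a settled symbol, 2061 could be placed in genome order. Neighbours here are successive genes among these 2061. Other genes can lie between them, so a change over a short stretch can be missed. None of 1830 windows of 11 such neighbours had a median log2 difference beyond 0.5 in size. The medians ran from -0.25 to 0.27. The lowest median, -0.25, was in windows holding TNFSF13B and GAS6, and the highest, 0.27, in the window holding MEF2D and AIM2. The window from IFI44L and IFI44 to GBP4 was at -0.23, and windows holding HOXB4, HOXB9 and DLX4 were at 0.26.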

How the data were processed

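RNA sequencing was done on 18 libraries of OCI-AML2 and OCI-AML3 cells, grouped and numbered by their titles. The deposited table gives TPM per gene and library with 2 decimals, per the file headers; no aligner, counting tool, genome build or annotation is given in the sources used here. Depth is unknown, since TPM keeps none. All 18 value columns matched a sample. Distinct sets of 18 values were counted once. A symbol was settled for 413 sets that carried it in every line, for 1234 through the replicate order of clone 1 (of 2 lines reading a, b, c and b, c, a, the first has the right symbol) and for 673 in a single line with a log2 ratio under 0.6 between the parental lines, a limit taken over from earlier work on these data. The order of the clone 1 replicates is known for 1389 of the 4413 tested sets. In the others, which include sets of the last kind and sets without a settled symbol, it is as printed and may be rotated.

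The test was limma 3.58.1 (R 4.3.3) on log2(TPM + 1): 1 mean per group, all 18 libraries sharing the estimate of spread, an intensity trend, a minimum of 1 TPM in 3 or more libraries, two-sided p-values adjusted by Benjamini-Hochberg over the 4413 sets, threshold 0.05. Fold changes on this scale understate those of low genes; ratios are of mean TPM. Tables and figures were made in Python 3.11.15 with pandas 2.3.3 and matplotlib 3.10.9.

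The genes named are CASP2, the 15 settled sets with the largest log2 difference in each direction that passed, did not overlap and reached 10 TPM in the higher clone, the 8 with the largest TPM difference in each direction, and up to 4 called members of each list and direction; other members are given with values as list members. The comparison, its members and the lists were chosen with earlier results of these data known. Alternatives varied the pseudocount, filter, scaling, libraries in the fit, intensity trend, replicate block and each clone library.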

Additional observations from a re-analysis of the deposited data

How the results depend on the processing

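With a pseudocount of 0.1, 166 sets passed (92 higher, 74 lower) and 30 of them reached a log2 difference of 1; with a pseudocount of 5 only 1 reached it. Rescaling by medians of ratios gave 277 higher sets and 132 lower, with 4 reaching a log2 difference of 1, and moved the median of all sets to 0.01. Fitting only the OCI-AML3 libraries gave 194 sets (106 higher), and only the clone libraries 155 (72 higher, 83 lower), with fewer libraries to estimate the spread. Counting only sets with a settled symbol gave 154 (90 higher, 64 lower), 3 of them reaching a log2 difference of 1. Leaving out each clone library in turn, in the printed order for clone 1, gave 102 to 341 sets, 37 to 215 higher and 65 to 126 lower. The lowest counts came without replicate 2 of clone 2 and the highest total without its replicate 3. With the replicate number as a block, 90 sets passed (37 higher, 53 lower), but the deviations of same-numbered libraries of the clones correlated at 0.0045, 0.0817 and -0.0095 across sets, so the numbers are not treated as pairing the samples. CASP2 did not pass under any of the alternatives (log2 difference 0.16 to 0.28, adjusted p = 0.0799 to 0.546). Of the 53 other named genes, 53 kept their direction in every alternative that gave them a value and 12 also kept their call. The unknown depth leaves counting error at low TPM unmeasured.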

Other observations

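Genes outside the naming rule are given here as values, chosen after their values were seen. AIM2, a cytosolic DNA sensor, was listed at 0 in parental cells. It had 2.81, 3.32 and 2.82 TPM in clone 1 and 2.55, 1.48 and 1.47 TPM in clone 2 (log2 difference -0.51, adjusted p = 0.00827 by limma). DDX60L, a helicase relative induced by interferon, was at 16.85, 18.09 and 14.93 TPM in clone 1 and 12.95, 11.49 and 13.22 TPM in clone 2 (adjusted p = 0.00744). SLFN5, a Schlafen family gene, was at 2.9, 2.73 and 3.23 TPM in clone 1 and 2.27, 2.15 and 1.79 TPM in clone 2 (adjusted p = 0.0112). GAS6, the ligand of the TAM receptor kinases, was at 43.63, 44.56 and 43.92 TPM in clone 1 and 31.28, 35.82 and 31.03 TPM in clone 2 (adjusted p = 0.021), while its receptors TYRO3 and MERTK did not pass.

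NPY, a secreted neuropeptide, was listed at 0 in parental cells. It had 2.13, 2.42 and 1.85 TPM in clone 1 and 3.55, 6.96 and 3.76 TPM in clone 2 (log2 difference 0.83, adjusted p = 0.00164). SLPI, a protease inhibitor of mucosal and myeloid cells, was at 1.23, 0.74 and 1.47 TPM in clone 1 and 2.27, 2.83 and 3.22 TPM in clone 2 (log2 difference 0.82, adjusted p = 0.0015). OSR1, a zinc finger transcription factor, was low but tight, at 1.04, 1.11 and 1.3 TPM in clone 1 and 2.21, 2.12 and 2.08 TPM in clone 2 (adjusted p = 1.1e-05). ZDHHC11 and ZDHHC11B are near-identical copies that moved in opposite directions. ZDHHC11 was higher in clone 2, at 91.37, 93.46 and 84.09 beside 68.08, 73.41 and 71.7 TPM (adjusted p = 0.00682), and ZDHHC11B lower, at 0.74, 0.67 and 0.66 beside 1.15, 1.39 and 1.32 TPM (adjusted p = 0.00216). How reads were divided between such copies is not stated in the sources, so both values are uncertain.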
